A study of Mus musculus with 55 samples.

Results

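The optic nerve head (ONH) is the place where the axons of the retinal ganglion cells leave the eye. The samples described here are the 10 ONH samples taken 3 weeks after an optic nerve crush, out of 55 in the whole series, and they were chosen by their titles: 5 samples named as crushed and 5 named as contralateral controls. All mice were female C57Bl/6, 6 to 8 weeks of age at surgery. In the crushed group, the left optic nerve had been clamped 1 mm from the eyeball, and the crush lasted 10 seconds. The contralateral group was the right, unoperated ONHs of the same mice. Each sample pooled the ONHs of a pair of mice, so that a crushed sample and the contralateral sample with the same replicate number came from the same animals. These 5 pairs were compared within pairs. The 5 naive samples, from mice without any surgery, are given for reference, and the crush effects at 1 day, 3 days, 1 week and 3 months (5 pairs each) are given only where the 3-week response differed from them or could be followed. No transgene or gene deletion was involved. By the study's methods, each ONH was taken with the first part of the myelination transition zone behind it, and sclera and meningeal sheath were removed. RNA of this tissue was hybridised to Affymetrix Mouse 430A 2.0 arrays, so every value is a mean over a mixed tissue. Fewer cells of a type cannot be told apart from less RNA per cell.

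In the mouse ONH the ganglion cell axons run unmyelinated between the processes of astrocytes, and acquire myelin from oligodendrocytes only behind it, in the myelination transition zone. A crush behind the globe cuts the axons off from their targets, and the axon stumps and their cell bodies then degenerate over days to weeks. Axons keep their shape with neurofilaments and spectrins and are supplied by kinesin motors. Myelin consists largely of lipid, and phagocytes that clear it take up cholesterol and fatty acids. The comparison at 3 weeks asks which genes still differed from the other eye of the same mice once this degeneration had run for weeks.

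Of 22626 probe sets, 19313 reached an intensity of 50 in at least 5 of the 40 arrays that were analysed together, and were tested with limma. At 3 weeks 455 probe sets were higher and 338 were lower in crushed ONHs, at an adjusted p under 0.05 and a change of at least 2-fold, which is 4.11% of those tested (2.36% higher and 1.75% lower). With 1 probe set for each of 10763 named genes, 297 genes were higher (2.76%) and 191 were lower (1.77%). The median log2 difference over all these genes was 0.007. Levels are given as array intensities, and a value with ± in parentheses is the log2 difference, crushed minus contralateral, with its limma SE. That SE rests on the spread over all 40 arrays of the joint fit, and not on the 5 pairs of 3 weeks alone. Changes over 8-fold were seen in 14 of the genes that rose and in 4 of those that fell. All 5 pairs moved the same way in 436 of the 455 higher and 303 of the 338 lower probe sets. The calls rest on these same pairs, so this agreement is partly built in. The same holds for the lack of overlap between groups given below for called genes, and the share of all genes without overlap is not given. By the criteria of the study's methods, which ask for a lower 90% confidence bound of the fold change above 2 a difference of means above 100 on the linear scale and a paired test without adjustment, 162 probe sets were higher and 93 were lower.

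The arrays were alike in overall level, with medians of 469 to 523 in crushed and 467 to 496 in contralateral ONHs. They were not alike in their content of neighbouring tissue. The mean log2 intensity over 21 photoreceptor genes was 10.07 and 11.37 in crushed replicates 1 and 3, and 6.38 to 7.32 in the other crushed arrays. In contralateral ONHs it was 9.14 and 11.26 in replicates 2 and 3, and 6.01 to 7 in the others. Skeletal muscle genes were high in crushed replicates 2 and 5 (8.63 and 9.12) and in contralateral replicate 2 (9.89), against 6.05 to 6.52 in the remaining arrays. None of the 21 photoreceptor genes and none of the 11 muscle genes was called at 3 weeks in limma. Pigment cell genes ranged from 8.92 to 10.36 in crushed and from 9.14 to 11.23 in contralateral ONHs. The part of such tissue in the results was not tested, and its levels are given beside the genes they moved with.

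**Figure D1:**
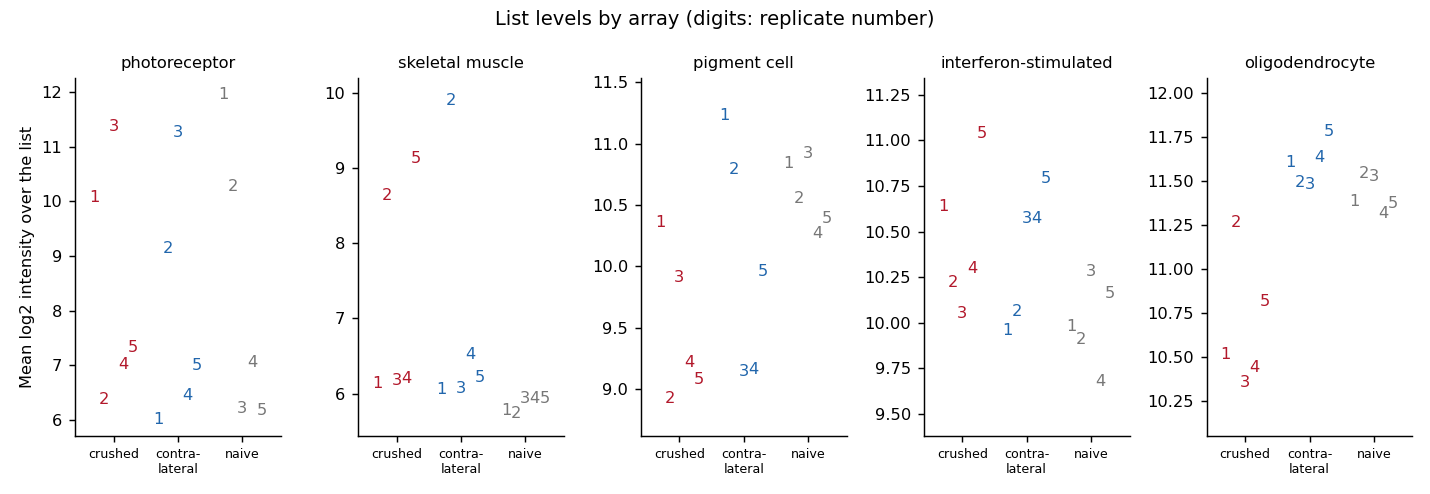
Mean log2 intensity over 5 gene lists in each array (vertical axis), for crushed, contralateral and naive ONHs; digits are replicate numbers. Photoreceptor genes were high in crushed replicates 1 and 3 and contralateral replicates 2 and 3, muscle genes in crushed replicates 2 and 5 and contralateral replicate 2, whereas oligodendrocyte genes were lower in all 5 crushed arrays (10.35 to 11.26) than in any contralateral array (11.48 to 11.78).

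Axon genes showed the largest falls. Of 30 tested genes in a list of axon and ganglion cell genes, 13 fell and 0 rose, with a median log2 difference of -1.12. Sptbn4, the spectrin of nodes of Ranvier and axon initial segments, measured 11.7, 5.16, 18.5, 6.22 and 13.6 in crushed replicates 1 to 5, against 721, 543, 578, 549 and 422 in the contralateral replicates. All 5 crushed values lay below the floor of 20, which was used for every log2 value, so that its log2 difference of -4.79 ± 0.24 (SE, adjusted p = 1.5e-10) is limited by that floor. Nefh, the heavy neurofilament chain, had intensities of 25.5, 13.9, 39.7, 17.3 and 6.32 in crushed ONHs and 685, 755, 945, 559 and 466 in contralateral ONHs, a log2 difference of -4.78 ± 0.31 (adjusted p = 6.2e-09). The light chain Nefl followed, at 46.2, 39.7, 120.4, 27.3 and 47.7 in crushed and 353, 395, 744, 265 and 240.3 in contralateral ONHs (-2.9 ± 0.65, adjusted p = 0.0028). In each of these 3 genes the groups were far apart, and crushed replicate 3, one of the arrays rich in photoreceptor RNA, was the highest of its group. The medium chain Nefm fell by 2.16 on the log2 scale (16.3 to 37.04 in crushed ONHs, 109.8 to 162 in contralateral ONHs, adjusted p = 0.0026).

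The contralateral levels of these structural genes were themselves below those of the naive ONHs. Sptbn4 averaged 11.03 ± 5.49 in crushed, 563 ± 107 in contralateral and 1966 ± 839 in naive ONHs (SD, n = 5 each). Nefh averaged 20.6 ± 12.7 in crushed, 682 ± 184 in contralateral and 2172 ± 1001 in naive ONHs. Naive values were widely spread, and naive replicates 1 and 2 were rich in photoreceptor RNA. The contralateral and naive groups were not tested against each other here. For the myelin gene Mog the order was another, with means of 2832 ± 1185 in crushed, 7238 ± 508 in contralateral and 5819 ± 349.9 in naive ONHs.

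**Figure D2:**
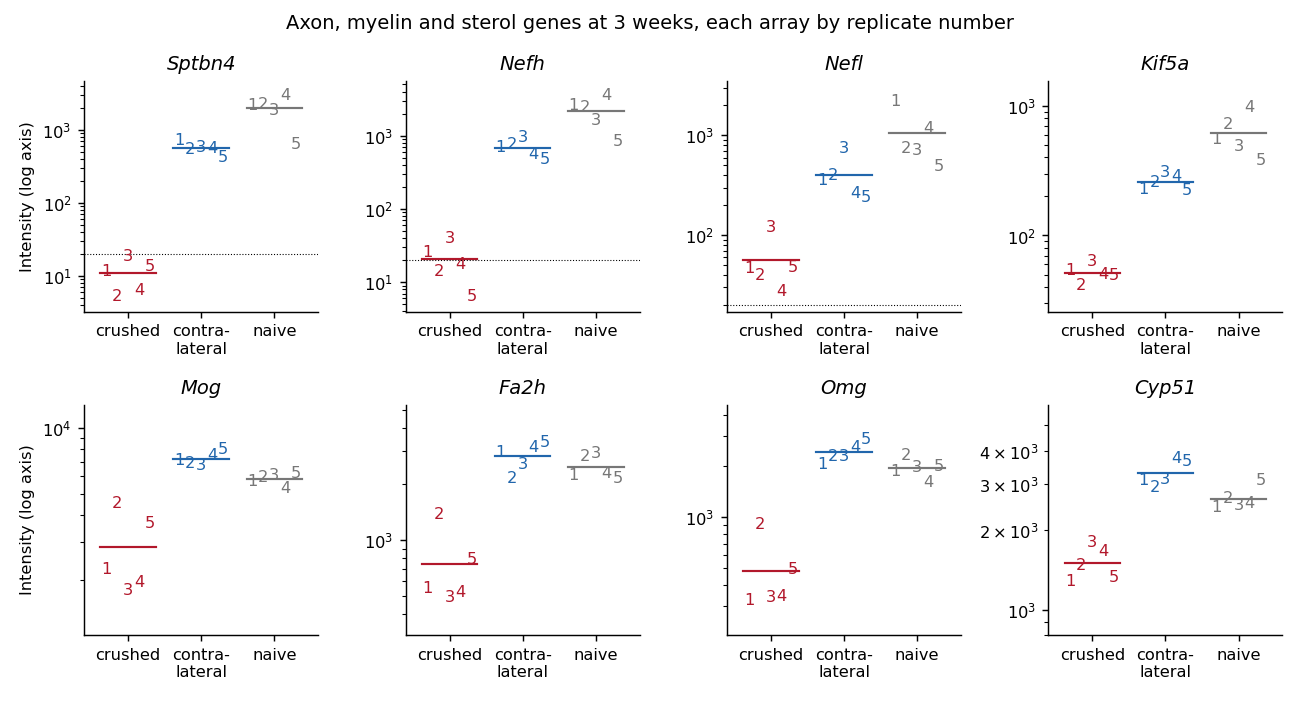
Intensity (log axis) of 8 genes that fell, in each crushed, contralateral and naive array; digits are replicate numbers, horizontal lines are group means and the dotted line is the floor of 20. Sptbn4 lay below 20 in all 5 crushed arrays, and crushed replicate 2 was the highest crushed array for Mog, Fa2h and Omg.

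Genes of vesicles and of neuronal membranes fell next to the cytoskeleton. Nrsn1 (neurensin 1, a neuronal vesicle membrane protein) was at 493, 66.6, 1908, 82.5 and 149 in crushed ONHs, against 5402, 5157, 5584, 4449 and 5140 in contralateral ONHs (-4.43 ± 0.49, adjusted p = 3.9e-06). Its level in crushed replicate 3 was far above that of the other 4 crushed arrays. The same array was highest for Calb2 (calretinin, a calcium-binding protein of ganglion and amacrine cells), with 109, 46.3, 650.3, 45.2 and 75.3 in crushed and 746, 857, 1116, 864 and 861 in contralateral ONHs (-3.11 ± 0.6, adjusted p = 0.00082), and for Cacng3, a subunit that accompanies AMPA receptors and calcium channels, with 16.3, 13.1, 110.4, 15.4 and 21.6 in crushed and 155, 189, 200.3, 198 and 208 in contralateral ONHs. Whether retinal tissue in that array set these values was not tested. Without pair 3 all 3 genes kept their calls.

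Resp18, a protein of neuroendocrine secretory granules, had a large but uneven fall (-2.47 ± 0.77, adjusted p = 0.026); its crushed values of 27.4 to 595 overlapped the contralateral values of 187 to 836, and the call was lost when pair 2, 4 or 5 was left out, with an adjusted p of up to 0.099. Mapk8ip2, a scaffold of the JNK pathway that is carried by kinesin, measured 359.9, 240.2, 905, 226 and 252 in crushed ONHs, whereas contralateral ONHs had 2100, 2075, 2239, 1885 and 2115 (-2.62 ± 0.29, adjusted p = 3.3e-06). Of its 3 probe sets 2 were called. Rundc3a, a neuronal effector of small GTPases, also fell; its crushed values were 50.1 to 131 and its contralateral values 326 to 573 (-2.43 ± 0.29, adjusted p = 9.0e-06), but its second probe set had a log2 difference of 0.02.

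Of 23 tested synaptic genes, 4 fell and 0 rose (median -0.15). They were Vamp1, Rph3a, Cplx1 and Sv2a, all of them proteins of vesicle docking and release. Vamp1 measured 17.8 to 54.3 in crushed and 120.5 to 319.5 in contralateral ONHs (-2.3 ± 0.39, adjusted p = 0.00024), and Rph3a, a Rab3 effector, 4.66 to 25.5 in crushed and 68.8 to 98.6 in contralateral ONHs. With the floor raised to 50 the difference of Rph3a was -0.79 and it was not called. Cplx1 (adjusted p = 0.047) and Sv2a (adjusted p = 0.036) were near the threshold, and leaving out pairs made both fail, with adjusted p up to 0.18 for Cplx1 and 0.14 for Sv2a. Syp, which encodes synaptophysin, had a log2 difference of 0.12 ± 0.69, with its highest values in replicate 3 of both groups (2654 in crushed, 1660 in contralateral). Syn1 likewise did not pass (-0.52 ± 0.41, adjusted p = 0.41).

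Motors of axonal transport fell in part. Of 29 tested kinesin, dynein and dynactin genes, 6 fell and 0 rose, and the list median was -0.17. The neuronal kinesin-1 heavy chain Kif5a measured 53.6, 41.3, 63.5, 49.6 and 49.4 in crushed ONHs, against 225, 255, 304, 284 and 221 in contralateral ONHs, with no overlap (-2.33 ± 0.19, adjusted p = 1.5e-07). Its neuronal paralog Kif5c was at 307 to 828 in crushed and 1080 to 2125 in contralateral ONHs (-1.77 ± 0.2, adjusted p = 4.3e-06). The third paralog, Kif5b, which is made by most cell types, was at 4418 to 5432 in crushed and 7003 to 9188 in contralateral ONHs; its difference of -0.78 ± 0.08 stayed under 2-fold (adjusted p = 7.8e-07), while its 5 probe sets ranged from -1.30 to -0.44 and 1 was called. The synaptic vesicle motor Kif1a (-1.41 ± 0.27), Kif21a (-1.72 ± 0.23) and the dynein intermediate chain Dync1i1 (-1.51 ± 0.34) also fell, with an adjusted p of 0.0029 for Dync1i1.

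Ganglion cell markers did not all behave like the neurofilaments. Sncg, gamma-synuclein, fell by 2.07 on the log2 scale, with 127 to 268 in crushed and 638 to 959 in contralateral ONHs (adjusted p = 0.0018). Gap43, a growth cone protein, fell by 1.14 (222 to 352 in crushed, 502 to 768 in contralateral ONHs, adjusted p = 0.0014). Tubb3, neuronal beta-tubulin, measured 519, 912, 536, 652 and 647 in crushed and 979, 872, 742, 1097 and 1175 in contralateral ONHs and did not pass (-0.59 ± 0.23, adjusted p = 0.075). Thy1, used as a ganglion cell marker in the retina and also made by T cells and fibroblasts, had a positive log2 difference of 0.7 ± 0.17 (adjusted p = 0.0058), under 2-fold, with 703, 914, 1286, 596 and 818 in crushed ONHs against 534, 515, 604, 519.7 and 416 in contralateral ONHs. Of 17 tested genes of nodes of Ranvier, only Sptbn4 was called. With Sptbn4 included, 3 were lower when any probe set of a gene was counted. Without a minimum fold change 4 were lower, again with Sptbn4, where 12.6% of all genes were. The juxtaparanodal potassium channel Kcna1 had a log2 difference of -0.51 ± 0.17 and the paranodal Cntnap1 0.23 ± 0.29, which was dim, at 31.01 to 53.2 in crushed and 24.9 to 45.9 in contralateral ONHs.

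Oligodendrocyte and myelin genes were lower across the list. Of 38 tested genes, 15 fell and 0 rose, the median log2 difference was -0.88, and without a minimum fold change 33 of the 38 were lower at an adjusted p under 0.05, where 12.6% of all genes were. Fa2h, which hydroxylates the fatty acids of myelin galactolipids, measured 548, 1380, 492, 524 and 787 in crushed ONHs and 2953, 2141, 2546, 3133 and 3342 in contralateral ONHs (-2.02 ± 0.27, adjusted p = 2.6e-05). Gjc3, an oligodendrocyte connexin, was at 207, 590.5, 216, 237 and 401 in crushed and 994, 1217, 1221, 1423 and 1244 in contralateral ONHs (-2.01 ± 0.31, adjusted p = 0.00011). In both genes the groups were apart, and crushed replicate 2 was the highest crushed array.

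Myelin oligodendrocyte glycoprotein, Mog, was at 2254, 4497, 1792, 1964 and 3655 in crushed ONHs, against 7124, 6886, 6712, 7485 and 7985 in contralateral ONHs (-1.45 ± 0.24, adjusted p = 0.00018). Mag, the periaxonal myelin-associated glycoprotein, had 1061, 2210, 540, 829.9 and 1024 in crushed and 2388, 2411, 2056, 2504 and 2554 in contralateral ONHs (-1.23 ± 0.3, adjusted p = 0.0052). Omg, oligodendrocyte myelin glycoprotein, which binds the Nogo receptor, fell further than these, with 324, 908, 337, 344 and 493 in crushed and 2032, 2282, 2275, 2563 and 2855 in contralateral ONHs (-2.43 ± 0.26, adjusted p = 2.0e-06). Myrf, the transcription factor of myelin gene expression (-1.72 ± 0.31), Gal3st1, which makes sulfatide (-1.67 ± 0.23), and Gjb1, connexin 32 (-1.54 ± 0.26), fell as well. Hapln2, a link protein of the perinodal matrix, fell by 1.80, but 1 of its 2 probe sets stood at -0.22.

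The brightest myelin genes moved less. Cnp measured 5341 to 8088 in crushed and 8845 to 10699 in contralateral ONHs (-0.64 ± 0.1, adjusted p = 8.0e-05), and Mobp 4437 to 9002 in crushed and 10152 to 11716 in contralateral ONHs (-0.85 ± 0.12, adjusted p = 4.6e-05). Mbp, whose brightest probe set was at 10027 to 12571 in crushed and 10991 to 14563 in contralateral ONHs, differed by -0.27 ± 0.08. Its 8 probe sets ranged from -1.35 to 0.63, and the 3 probe sets of Mobp from -1.90 to -0.85. The probe set shown for each gene is its brightest, and whether such bright probe sets respond less was not tested; counting a gene by any of its probe sets, 22 of the oligodendrocyte genes fell.

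Pair 2 stood apart in this tissue. The mean log2 difference over the oligodendrocyte list was -0.23 in pair 2, and -1.09, -1.13, -1.19 and -0.97 in pairs 1, 3, 4 and 5. Crushed replicate 2 held muscle RNA but little photoreceptor RNA, and its neurofilament values were as low as in the other crushed arrays. Without pair 2, 21 oligodendrocyte genes fell. Genes of oligodendrocyte precursors were mostly level: of 15 tested, 2 fell (Cspg5, -1.23 ± 0.23, and Nkx2-2, -1.09 ± 0.23) and 1 rose (Matn4, 1.84 ± 0.25), and Pdgfra, the defining receptor of these cells, measured 4333 to 4954 in crushed and 3693 to 4947 in contralateral ONHs (0.07 ± 0.08).

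Enzymes of cholesterol synthesis were lower, though by less. Of 19 tested genes, 5 fell 2-fold or more (26.3%, against 1.77% of all genes) and 0 rose. Without a minimum fold change 16 of the 19 were lower, where 12.6% of all genes were, and the list median was -0.69. Cyp51, which removes a methyl group from lanosterol, had 1278, 1472, 1791, 1661 and 1320 in crushed ONHs and 3083, 2920, 3128, 3744 and 3638 in contralateral ONHs (-1.14 ± 0.1, adjusted p = 1.5e-07). Idi1, isopentenyl diphosphate isomerase, was at 1462, 1336, 1908, 1666 and 1315 in crushed and 2994, 2873, 3094, 3949 and 3917 in contralateral ONHs (-1.13 ± 0.13, adjusted p = 5.0e-06). Fdps (-1.24 ± 0.15), Mvd (-1.14 ± 0.14) and Lss (-1.06 ± 0.14) were the other 3 genes called, and the groups did not overlap in any of the 5. Hmgcs1 had a log2 difference of -0.42 ± 0.05 in its brightest probe set (adjusted p = 7.2e-06) and of -0.99 to -0.42 over its 4 probe sets, and Sqle one of -0.87 ± 0.12 (adjusted p = 2.9e-05), both under 2-fold.

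The contralateral ONHs were above the naive ONHs in this pathway: the mean log2 level over the list was 10.01 to 10.31 in crushed, 10.69 to 10.96 in contralateral and 10.56 to 10.71 in naive ONHs. Set against naive ONHs, 1 of the 5 genes was called. The promoters of 2 of these genes are shown because most of the list was lower. Both are RefSeq windows of the GRCm38.p6 build, from 250 bases before to 50 after the start of the gene, and capitals mark CCAAT or its reverse complement ATTGG, the letters of the CCAAT box.
Cyp51 (chr5:4104648-4104947, minus strand): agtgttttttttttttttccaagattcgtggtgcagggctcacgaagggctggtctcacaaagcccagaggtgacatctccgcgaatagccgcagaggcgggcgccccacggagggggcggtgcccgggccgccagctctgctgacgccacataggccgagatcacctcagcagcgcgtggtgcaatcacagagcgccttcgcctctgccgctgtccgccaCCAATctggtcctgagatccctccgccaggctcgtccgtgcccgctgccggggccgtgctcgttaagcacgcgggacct
Idi1 (chr13:8885356-8885655, plus strand): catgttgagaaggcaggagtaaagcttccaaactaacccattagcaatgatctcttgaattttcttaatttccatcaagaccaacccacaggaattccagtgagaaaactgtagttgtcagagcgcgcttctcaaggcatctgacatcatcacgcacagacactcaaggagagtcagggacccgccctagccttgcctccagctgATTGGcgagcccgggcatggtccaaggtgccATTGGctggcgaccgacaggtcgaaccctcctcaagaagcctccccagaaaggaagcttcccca
On either strand, CCAAT was in 16 of the 20 promoters of cholesterol genes in the RefSeq table, and in 37.4% of all 32851 promoters of this length. The letters TCACNCCAC of a sterol element were in 1 of the 20 and in 1.24% of all promoters. The first match began 29 bases before the start of Cyp51 and 45 bases before that of Idi1. These matches describe letters and not a bound factor.

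Of 40 tested genes of lipid handling and phagocytosis, 14 rose and 0 fell (median 0.47). Apoc4 had the largest rise of all named genes, with 733, 1550, 381, 422 and 1091 in crushed ONHs, against 34.5, 42.9, 30.5, 47.5 and 45.2 in contralateral ONHs (4.19 ± 0.31, adjusted p = 2.7e-08). Apoc1, its neighbour in the same apolipoprotein cluster on chromosome 7, measured 859, 2653, 998, 851 and 960.2 in crushed and 135, 202, 133, 145 and 116 in contralateral ONHs (2.98 ± 0.23, adjusted p = 6.7e-08). Both were highest in crushed replicate 2 and did not overlap between the groups. Apoe, the main apolipoprotein of glia, from the same cluster, was at 5998, 6201, 6751, 6578 and 4823 in crushed and 7473, 5607, 5439, 5671 and 6508 in contralateral ONHs and did not differ beyond its spread (-0.02 ± 0.1, adjusted p = 0.94).

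Lipoprotein lipase, Lpl, rose to 1836, 3418, 2458, 1189 and 2026 in crushed ONHs, against 525, 671, 304, 230.1 and 307 in contralateral ONHs (2.45 ± 0.3, adjusted p = 1.1e-05). Acp5, the tartrate-resistant acid phosphatase of osteoclasts and activated macrophages, was at 441, 454, 487, 611 and 455 in crushed and 66.96, 98.2, 40.99, 88.2 and 55.8 in contralateral ONHs (2.86 ± 0.41, adjusted p = 5.5e-05). Cd5l, a secreted macrophage protein, had 70.4 to 275 in crushed and 20.2 to 47.99 in contralateral ONHs (2.17 ± 0.38, adjusted p = 0.00035). Gpnmb, a glycoprotein of phagocytes and of pigment cells, rose by 1.35 ± 0.21, although the pigment cell list as a whole had a median of -0.58. Fabp4, a fatty acid carrier of adipocytes and macrophages, averaged a log2 difference of 3.04 ± 0.77 (adjusted p = 0.0073) with 1 pair against the rest: contralateral replicate 2, the array rich in muscle RNA, had 2381, while the other contralateral arrays had 18 to 219. Lgals3, galectin 3, did not differ (0.02 ± 0.13).

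**Figure D3:**
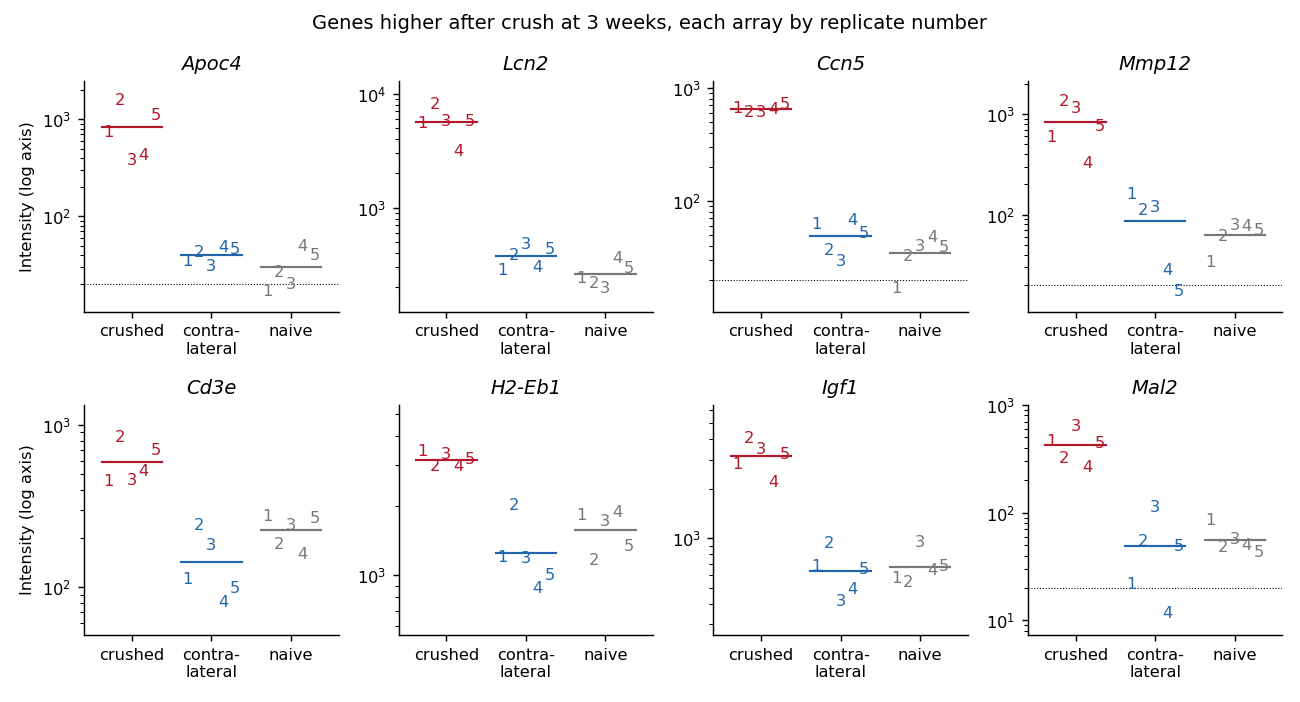
Intensity (log axis) of 8 genes that rose, in each crushed, contralateral and naive array; digits are replicate numbers, horizontal lines are group means and the dotted line is the floor of 20. No crushed array of these genes lay within the range of the contralateral arrays.

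Macrophage genes were higher with few exceptions. Of 37 tested myeloid genes, 11 rose and 1 fell, and 31 were higher without a minimum fold change, where 12% of all genes were. Cd68, the lysosomal glycoprotein of phagocytes, measured 2849, 4118, 2756, 2451 and 2911 in crushed and 1178, 1018, 746, 1052 and 1069 in contralateral ONHs (1.57 ± 0.16, adjusted p = 2.0e-06). Ccr2, the chemokine receptor of blood monocytes, was at 1513, 1607, 1107, 1461 and 2039 in crushed ONHs and 337, 596, 326, 415 and 287 in contralateral ONHs (2 ± 0.2, adjusted p = 9.6e-07). Itgax, which encodes CD11c and was counted with the lipid and complement genes, had 517, 1075, 474, 388 and 386 in crushed and 162, 125, 90.6, 123 and 103 in contralateral ONHs (2.15 ± 0.38, adjusted p = 0.00037). The groups did not overlap in these genes. Trem2, a lipid receptor of microglia (1.4 ± 0.27, adjusted p = 0.00095), Itgb2, the common beta chain of leukocyte integrins (1.25 ± 0.22), and Cd84 (1.5 ± 0.22) rose too. So did the lysosomal metal transporter Slc11a1 (1.45 ± 0.26), which was counted in the lysosome list, where 4 of 50 genes rose and 0 fell (median 0.09). Ptprc, CD45, stood just over the 2-fold limit (1.01 ± 0.17) and fell under it without pair 2 or pair 5, at 0.85 and 0.98. Aif1 had 0.76 ± 0.22 (adjusted p = 0.017), Itgam 0.42 ± 0.19 (adjusted p = 0.13) and Csf1r 0.45 ± 0.13 (adjusted p = 0.019), none of them called.

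Some genes of resident macrophages moved the other way. Of 16 tested genes of homeostatic microglia, 2 fell and 1 rose. The list as a whole did not fall: its median was 0.31, with 10 genes above 0 and 6 below. Without a minimum fold change 6 were higher and 3 lower, where 12% of all genes were higher and 12.6% lower. Slc2a5, the fructose transporter GLUT5, which marks microglia in brain, was at 14.4, 29.7, 36.4, 52.1 and 45.6 in crushed and 119, 145, 175, 207 and 240 in contralateral ONHs (-2.3 ± 0.19, adjusted p = 1.1e-07). Sall1, a transcription factor of microglial identity, fell by 1.13 (44.3 to 91.7 in crushed, 121 to 165 in contralateral ONHs, adjusted p = 3.7e-05). P2ry12, the ADP receptor of resting microglia, had 603, 838, 479.7, 670.1 and 1166 in crushed and 1425, 1297, 1337, 1540 and 1431 in contralateral ONHs; its log2 difference of -0.97 ± 0.15 was just short of 2-fold (adjusted p = 9.3e-05). In contrast Fcrls rose to 2771, 3559, 3126, 2411 and 2686 in crushed ONHs, against 726, 584, 335, 477 and 644 in contralateral ONHs (2.43 ± 0.23, adjusted p = 7.7e-07). Cx3cr1 had a positive difference of 0.89 ± 0.24, under 2-fold.

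Vsig4, a complement receptor of tissue macrophages, fell by 2.44, with 125, 83.4, 33.2, 169.7 and 60.5 in crushed and 440.1, 401, 383, 495 and 494 in contralateral ONHs (adjusted p = 0.00031). Cd163, the haemoglobin scavenger receptor of perivascular macrophages, fell by 1.04 (198 to 364 in crushed, 433 to 600.1 in contralateral ONHs, adjusted p = 0.013), and this call was lost without pair 2 or pair 3. Flt3, a receptor of dendritic cell precursors, was at 31.4, 12.7, 38.8, 52.5 and 24.7 in crushed and 215, 172, 229, 166 and 197 in contralateral ONHs (-2.62 ± 0.32, adjusted p = 1.0e-05). For Vsig4 and Flt3, as for Slc2a5, no crushed value reached the contralateral range.

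MHC class II genes, which present antigen to CD4 T cells, rose. Of 12 tested genes of the class II pathway, 3 rose and 0 fell (median 0.58). H2-Eb1 measured 3419, 2940, 3342, 2944 and 3154 in crushed and 1195, 2000, 1181, 875 and 993 in contralateral ONHs (1.4 ± 0.23, adjusted p = 0.00021), H2-Aa 5228, 5237, 5070, 4791 and 5390 in crushed and 2126, 3408, 2221, 1706 and 1670 in contralateral ONHs (1.26 ± 0.19, adjusted p = 7.4e-05), and H2-Ab1 3341, 3508, 3482, 2844 and 3470 in crushed and 1610, 2113, 1362, 1304 and 1374 in contralateral ONHs (1.12 ± 0.18, adjusted p = 0.00016). In all 3 genes the crushed arrays were close to each other, contralateral replicate 2 was the highest contralateral array, and the groups did not overlap. The invariant chain Cd74 had a difference of 0.82 ± 0.15 (adjusted p = 0.00041) and the class II transactivator Ciita 0.6 ± 0.21 (adjusted p = 0.047), both under 2-fold.

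The promoters of H2-Aa and H2-Eb1 follow, since the chains rose in parallel and share a known promoter layout. Capitals mark CTGATTGG, the core letters of the Y box.
H2-Aa (chr17:34287774-34288073, minus strand): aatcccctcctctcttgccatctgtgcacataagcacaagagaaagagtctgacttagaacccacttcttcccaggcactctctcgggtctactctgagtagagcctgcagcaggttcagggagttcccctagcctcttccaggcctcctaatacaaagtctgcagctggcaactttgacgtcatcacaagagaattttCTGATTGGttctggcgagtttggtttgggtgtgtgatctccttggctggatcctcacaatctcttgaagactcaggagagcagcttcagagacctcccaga
H2-Eb1 (chr17:34305617-34305916, plus strand): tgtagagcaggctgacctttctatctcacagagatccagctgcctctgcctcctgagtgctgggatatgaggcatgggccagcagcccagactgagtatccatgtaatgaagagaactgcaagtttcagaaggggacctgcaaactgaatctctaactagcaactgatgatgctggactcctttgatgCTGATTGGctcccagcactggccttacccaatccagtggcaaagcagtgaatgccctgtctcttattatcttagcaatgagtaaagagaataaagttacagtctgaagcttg
The match began 51 bases before the start in H2-Aa and 62 bases before it in H2-Eb1. CTGATTGG, on either strand, was in 3 of the 10 promoters of class II pathway genes in the RefSeq table and in 4.1% of all promoters. It was as frequent among the cholesterol genes, in 6 of their 20 promoters. The other gene with it, H2-Oa, was not called (log2 difference 0.31), so the letters alone did not go with a call.

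T cell genes were higher as well. Of 24 tested T and NK cell genes, 7 rose and 0 fell, with a median of 0.66. Cd3e, a chain of the T cell receptor complex, measured 449, 833, 456, 514 and 694 in crushed ONHs and 112, 239, 182, 80.8 and 97.8 in contralateral ONHs (2.13 ± 0.32, adjusted p = 9.0e-05). Il7r, the interleukin 7 receptor, which T cells and other lymphoid cells carry, was at 556, 950.4, 464, 595 and 510 in crushed and 141, 110.3, 53.2, 63.5 and 39.98 in contralateral ONHs (3.02 ± 0.32, adjusted p = 2.0e-06). Itgb7, an integrin chain of lymphocyte homing, had 683, 469, 560.2, 928 and 483 in crushed and 93.8, 107, 62.4, 104 and 148 in contralateral ONHs (2.61 ± 0.3, adjusted p = 4.9e-06). Cxcr6 (1.93 ± 0.22) and Cd3d (1.71 ± 0.31) rose in the same way, and none of these 5 genes overlapped between groups, which their choice as called genes favours. One of the 2 probe sets of Cxcr6 differed by only 0.35. Cd8a was low in both groups (45.3 to 119 in crushed, 36.7 to 68.6 in contralateral ONHs) and differed by 0.55 ± 0.18, and Cd3g (0.87 ± 0.32, adjusted p = 0.053) and Cd2 (0.54 ± 0.24, adjusted p = 0.11) did not pass.

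B cell genes gave no common direction. Of 13 tested, Cd22 (1.25 ± 0.31) and Blnk (1.16 ± 0.28), which macrophages and microglia also make, rose, Tnfrsf13c fell by 1.40, and Cd79b had 0.71 ± 0.26 (adjusted p = 0.057). Without pair 2 Blnk was no longer called.

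Interferon-stimulated genes were not called. Of 43 tested, 0 rose and 0 fell in limma, and the list median was 0.03. Without a minimum fold change 3 were higher, where 12% of all genes were. The list moved apart in different pairs: its mean log2 difference was 0.68 in pair 1 and -0.52 in pair 3. The array means ran from 10.05 to 11.04 in crushed, from 9.96 to 10.79 in contralateral and from 9.68 to 10.28 in naive ONHs. Cxcl10 was at 4350, 4462, 2089, 4366 and 8876 in crushed ONHs and 4005, 5106, 8301, 5675 and 7484 in contralateral ONHs, with wide overlap (-0.44 ± 0.52, adjusted p = 0.6). Set against naive ONHs, 4 of these genes were called higher. Of 13 tested MHC class I genes only H2-M3 rose (1.03 ± 0.2), and B2m measured 10729 to 12477 in crushed and 11078 to 12327 in contralateral ONHs (-0.02 ± 0.05).

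**Figure D4:**
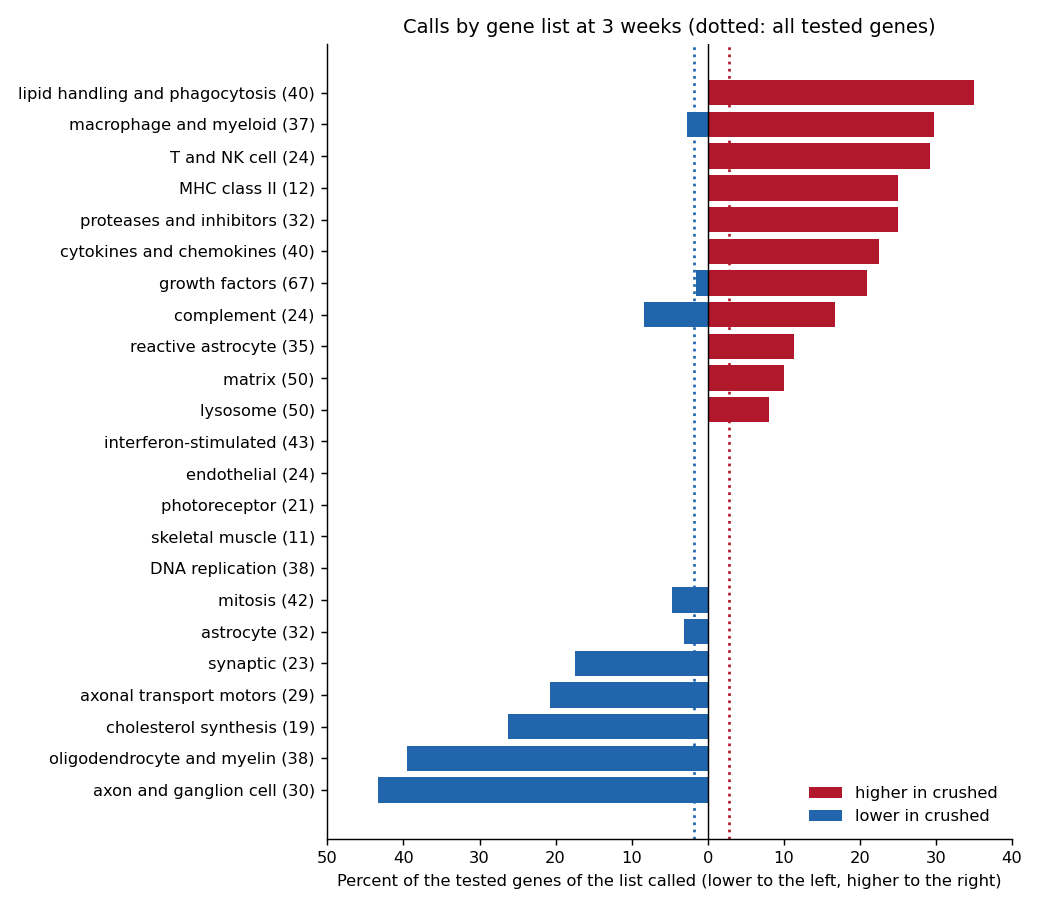
Share of the tested genes of 23 lists that were called lower (bars to the left) or higher (bars to the right) in crushed ONHs at 3 weeks, in percent; the number tested is in parentheses and dotted lines are the shares over all 10763 genes (1.77% lower, 2.76% higher). Axon and oligodendrocyte lists had 43.3% and 39.5% of their genes lower, and the lipid list 35% higher.

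Lcn2 and Saa3, secreted acute-phase proteins made by astrocytes, neutrophils and macrophages, were among the largest rises. Lcn2 measured 5439, 8097, 5754, 3134 and 5665 in crushed ONHs, against 280.4, 378, 477, 300 and 429.8 in contralateral ONHs (3.88 ± 0.38, adjusted p = 9.6e-07). Saa3 was at 2015, 3603, 1134, 3033 and 3433 in crushed and 148, 332, 335, 198 and 283 in contralateral ONHs (3.3 ± 0.46, adjusted p = 3.9e-05). Neither gene overlapped between the groups. Orm3, an orosomucoid, fell in contrast, with 73.1, 65.6, 92.8, 95.3 and 50.1 in crushed and 905, 516, 620.1, 609 and 390.5 in contralateral ONHs (-3 ± 0.37, adjusted p = 1.1e-05).

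Neutrophil genes beyond these were few. Of 13 tested, Lcn2 and S100a8 rose. S100a8, a calcium-binding protein of neutrophils and monocytes, was at 524, 1025, 360.3, 726 and 1251 in crushed and 120.5, 269.6, 154, 292 and 162 in contralateral ONHs (1.91 ± 0.35, adjusted p = 0.00047), and its partner S100a9 had 1.44 ± 0.55 (adjusted p = 0.066) with overlapping groups. Camp, a neutrophil granule gene, was level (-0.04 ± 0.18).

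Of 40 tested cytokines and chemokines, 9 rose and 0 fell. Ccl8, a ligand for monocytes and T cells, had 858, 798, 635, 565 and 1604 in crushed and 174, 230, 31.5, 71.3 and 85.3 in contralateral ONHs (3.13 ± 0.5, adjusted p = 0.00014). Cxcl1, a neutrophil attractant, rose to 217, 203, 137, 261 and 735 in crushed ONHs, against 71.99, 48.7, 21.99, 112 and 70.4 in contralateral ONHs (2.18 ± 0.44, adjusted p = 0.0012), with the highest value in crushed replicate 5. The interleukin 1 receptor antagonist Il1rn (1.66 ± 0.28), Ccl3 (1.47 ± 0.29) and Il1b (1.4 ± 0.37, intensities of 63.4 to 143 in crushed and 31.2 to 61.7 in contralateral ONHs) were called too. Il6 lay near or below the floor of 20 in most arrays (5.74 to 29.3 in crushed, 5.02 to 18.3 in contralateral ONHs), Tnf did not pass (0.56 ± 0.26, adjusted p = 0.13), and Ccl2 was uneven in both groups, with 673, 511, 698, 361 and 1577 in crushed and 226, 1197, 598, 1046 and 1356 in contralateral ONHs (-0.15 ± 0.54, adjusted p = 0.88).

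Of 24 tested complement genes, 4 rose and 2 fell. The genes that rose were the receptor chains Itgax, Itgb2 and C3ar1 and Cfi, the protease that cleaves active fragments. Cfi was dim (53.4 to 119.8 in crushed, 11.6 to 43.1 in contralateral ONHs), and with the floor raised to 50 its difference of 1.42 ± 0.28 was 0.51 (adjusted p = 0.11). The receptor Vsig4 and the lectin pathway protease Masp1 (-1.03 ± 0.23) fell, and Masp1 was not called without pair 3 or pair 5, at -1 and -0.92. Its 4 probe sets ranged from -2.84 to -0.87, and 3 of them were called. The first component of the classical pathway changed less: C1qa had 0.4 ± 0.1 (adjusted p = 0.0046) and C1qb 0.47 ± 0.08 (adjusted p = 0.00028), both under 2-fold.

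Proteases that cut matrix rose. Of 32 tested proteases and inhibitors, 8 rose and 0 fell (median 0.31). Mmp3, stromelysin 1, measured 1131, 1393, 854, 1369 and 2067 in crushed ONHs and 104, 253, 39.7, 65.1 and 85.8 in contralateral ONHs (3.86 ± 0.5, adjusted p = 2.1e-05). Mmp12, the macrophage elastase, was at 586, 1336, 1148, 325 and 750 in crushed and 159, 110, 117, 27.6 and 17.3 in contralateral ONHs (3.51 ± 0.39, adjusted p = 3.6e-06). Mmp13, a collagenase, had 146, 57.5, 81.7, 79.6 and 133 in crushed and 11.2, 27.9, 14.97, 30.8 and 5.10 in contralateral ONHs (2.01 ± 0.53, adjusted p = 0.0099), and with the floor raised to 50 it was not called. The groups did not overlap in these 3 genes. Adam8, a leukocyte sheddase, rose by 2.41 ± 0.29, and the inhibitors Timp1 (1.25 ± 0.12, adjusted p = 7.2e-07) and A2m (1.51 ± 0.33, adjusted p = 0.0021) rose with them. Mmp9 measured 49.04, 62.6, 209, 42.7 and 121 in crushed and 128, 83.6, 157, 101 and 79.3 in contralateral ONHs, which overlapped (-0.4 ± 0.4, adjusted p = 0.52).

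Of 50 tested matrix genes, 5 rose and 0 fell, and the median was 0.39. Without a minimum fold change 22 were higher, where 12% of all genes were. The mean difference over the list was uneven between pairs, at 0.03, 0.15, 0.9, 0.65 and 0.29 in pairs 1 to 5, and its median array level was 10.57 in crushed, 10.25 in contralateral and 10.73 in naive ONHs. Set against naive ONHs, 3 matrix genes were higher and 3 lower, and Postn (0.79), Col16a1 (0.7) and Col5a2 (0.67) were no longer called. Col14a1, a fibril-associated collagen, had 1679, 1836, 3018, 1550 and 2564 in crushed and 814, 1141, 199, 459 and 551 in contralateral ONHs (1.93 ± 0.42, adjusted p = 0.0024). Postn, periostin, was at 2662 to 4385 in crushed and 989.8 to 2298 in contralateral ONHs (1.28 ± 0.23), and Col16a1 (1.28 ± 0.27) and Col5a2 (1.07 ± 0.15) also rose. Thbs4, a thrombospondin of tendon and muscle, rose by 1.97 ± 0.56 (adjusted p = 0.015), but its call was lost without pair 3, 4 or 5. The abundant fibrillar chains Col1a1 (0.3 ± 0.07) and Col3a1 (0.34 ± 0.08) and fibronectin Fn1 (0.35 ± 0.07) differed by under 2-fold (adjusted p = 0.0048, 0.0029 and 0.0011). Without pair 3, 3 of the matrix genes were called.

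Epyc, epiphycan, a small leucine-rich proteoglycan known from cartilage, rose to 1980, 2045, 3662, 2122 and 3012 in crushed ONHs, against 377, 879, 31.3, 158 and 473 in contralateral ONHs (3.38 ± 0.83, adjusted p = 0.0057). The contralateral values were widely spread and lowest in replicate 3. Aspn, asporin, of the same family, was at 4152, 3868, 5147, 3045 and 5082 in crushed and 1738, 2175, 789, 886 and 929 in contralateral ONHs (1.8 ± 0.37, adjusted p = 0.0015), and Acan, aggrecan, at 51.5 to 178 in crushed and 18.6 to 49.9 in contralateral ONHs (1.3 ± 0.34). With the floor raised to 50 the difference of Acan was 0.78 and it was not called. Dcn, decorin, the most abundant of these proteoglycans, did not pass (0.24 ± 0.11, adjusted p = 0.12), nor did the glial lecticans Vcan (-0.02 ± 0.1) and Ncan (0.25 ± 0.14).

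Among 19 tested genes of fibroblasts and meninges, 2 rose and 0 fell. Slc47a1, an organic cation exporter of the arachnoid, measured 5711, 3663, 5887, 4201 and 4966 in crushed and 484, 1376, 651, 508 and 1549 in contralateral ONHs (2.58 ± 0.37, adjusted p = 5.7e-05). Cdh1, E-cadherin, which joins epithelial and arachnoid barrier cells, was at 7821, 6652, 7584, 8882 and 6584 in crushed and 2835, 3401, 2120, 3079 and 3262 in contralateral ONHs (1.36 ± 0.22, adjusted p = 0.00018). Neither gene overlapped between the groups. The mean level over the list, however, was 12.24 to 12.57 in crushed, 12 to 12.35 in contralateral and 12.14 to 12.58 in naive ONHs, and Igf2, a gene of leptomeninges, had a log2 difference of -0.48 ± 0.14 (adjusted p = 0.02). The part of meningeal tissue in these rises was not tested.

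Secreted growth and patterning factors rose in number. Of 67 tested, 14 rose and 1 fell (median 0.18). Ccn5, also named Wisp2, a secreted protein of the CCN family, had 650.4, 599, 607, 643 and 716 in crushed ONHs and 61.98, 35.9, 29.1, 66.4 and 51.5 in contralateral ONHs (3.78 ± 0.31, adjusted p = 1.1e-07). Igf1 was at 2809, 4059, 3488, 2186 and 3219 in crushed and 678, 934, 412, 486 and 645 in contralateral ONHs (2.35 ± 0.22, adjusted p = 4.8e-07), Bmp5 at 1451, 741, 1359, 1085 and 951 in crushed and 163, 288, 163, 129.8 and 141 in contralateral ONHs (2.68 ± 0.34, adjusted p = 1.3e-05), and Hgf at 148, 116, 109, 106 and 177 in crushed and 25.5, 29.3, 33.4, 14.3 and 22.4 in contralateral ONHs (2.33 ± 0.19, adjusted p = 1.1e-07). The groups were apart in each of these 4 genes. Sfrp2, a secreted Wnt modulator, rose by 2.56 ± 0.87 (adjusted p = 0.039), but contralateral replicate 3 had only 69.6, and without pair 3 the difference was 1.61 (adjusted p = 0.23). Wif1, a Wnt inhibitor, was the gene that fell, with 152, 202, 155, 762 and 488 in crushed and 1126, 1245, 1148, 1027 and 1011 in contralateral ONHs (-1.98 ± 0.3, adjusted p = 0.0001). The neurotrophic factor Gdnf had 0.83 ± 0.25 (adjusted p = 0.023) and Bmp4 0.6 ± 0.14 (adjusted p = 0.0035), both under 2-fold.

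Genes of astrocytes, the main cells of the glial lamina, were mostly lower, by small amounts. Of 32 tested astrocyte genes, 1 fell and 0 rose, 27 were below 0, and the median was -0.32. Without a minimum fold change 14 were lower, where 12.6% of all genes were, and 2 were higher. Gfap measured 6722, 8630, 7992, 8582 and 6998 in crushed and 9622, 8084, 8642, 7946 and 8475 in contralateral ONHs (-0.14 ± 0.09, adjusted p = 0.32), at the bright end of the array. The gene that fell was Itih3, a hyaluronan-binding protein (263 to 1174 in crushed, 1726 to 2226 in contralateral ONHs, -1.68 ± 0.27). Aqp4 (-0.04 ± 0.12), Slc1a2 (-0.22 ± 0.33) and Gja1 (-0.11 ± 0.08) were level, and the connexin Gjb6 was higher under 2-fold (0.48 ± 0.17, adjusted p = 0.045). Of 35 tested genes of reactive astrocytes, 4 rose and 0 fell. These were Lcn2, Timp1, the crosslinking enzyme Tgm1, with 172, 267, 126, 179.6 and 258 in crushed and 39.5, 56.9, 51.4, 70.8 and 37.8 in contralateral ONHs (1.95 ± 0.27, adjusted p = 4.0e-05), and the metalloreductase Steap4 (1.44 ± 0.32), 1 of whose 2 probe sets stood at -0.11. Serpina3n (0.09 ± 0.11), Cd44 (0.06 ± 0.09) and Vim (-0.07 ± 0.06) were not called.

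Genes of dividing cells were level. None of 38 DNA replication genes was called, and 4 were higher without a minimum fold change, where 12% of all genes were. Mki67 measured 37.1 to 65.05 in crushed and 36.3 to 71.5 in contralateral ONHs (0.01 ± 0.22, adjusted p = 0.97). Of 42 tested mitosis genes, 2 fell, Kif4 (-2.19 ± 0.26) and Anln (-1.28 ± 0.2). Kif4 was higher in naive ONHs (399.5 ± 237) than in any array of 3 weeks, and anillin is also a gene of myelinating oligodendrocytes.

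Immediate early and stress genes gave 3 rises among 36 tested, 8.33% of the list against 2.76% of all genes. Egr2, a zinc finger factor of activated macrophages and of Schwann cells, was at 1153, 1964, 2119, 3188 and 2125 in crushed and 776, 624, 324, 1527 and 379 in contralateral ONHs (1.7 ± 0.3, adjusted p = 0.00038), Hmox1, heme oxygenase 1, rose by 1.19 ± 0.2 and Junb by 1.09 ± 0.19. Fos (-0.11 ± 0.14), Jun (-0.15 ± 0.09) and Atf3 (0.6 ± 0.27) were not called. Of 29 tested apoptosis genes, Bcl2l11 rose, with 2577 to 3112 in crushed and 1152 to 1542 in contralateral ONHs (1.04 ± 0.1, adjusted p = 9.9e-07), and 4 of its 5 probe sets were called. This rise was 3.45% of the list, near the 2.76% of all genes that rose. Of 44 tested guidance genes, Omg, Unc5b (-1.57 ± 0.22) and Plxnb3 (-1.5 ± 0.22) fell, and the semaphorin receptor Plxna2 rose (1.24 ± 0.17, adjusted p = 2.9e-05). These falls were 6.82% of the list, against 1.77% of all genes, and the rise was 2.27%, against 2.76%.

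None of 24 endothelial genes was called by its brightest probe set, with Cldn5 at -0.33 ± 0.15 and Cdh5 at 0.39 ± 0.1. The other probe set of Cdh5 was called, at 1.25, and by any probe set 2 endothelial genes were higher. Without a minimum fold change 8 of the 24 passed, 4 in each direction, where 12% of all genes were higher and 12.6% lower. Of 17 mural cell genes, Anpep, an aminopeptidase that myeloid cells also carry, rose (1.67 ± 0.23, adjusted p = 3.3e-05), and Acta2 had a log2 difference of -0.68 ± 0.14 (adjusted p = 0.0012). Of 19 tested genes of inner retina, Calb2 and Prox1 (-1.09 ± 0.27) fell and Crym, a thyroid hormone-binding protein of amacrine and other cells, rose (1047 to 3613 in crushed, 82.01 to 1111 in contralateral ONHs, 2.68 ± 0.59), with overlapping groups. Gad1, an amacrine cell gene, was highest in replicate 3 of both groups, with 320, 87.5, 1737, 102 and 149 in crushed and 42.9, 86.8, 764, 16.4 and 32.2 in contralateral ONHs (adjusted p = 0.42). No glycolysis gene of 18 was called.

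A set of genes was changed more at 3 weeks than at any of the 3 earlier times. The crush effect at 3 weeks differed from that at 1 day in 2473 probe sets (12.8%), from that at 3 days in 1224 (6.34%), and from that at 1 week in 869 (4.5%). In 47 probe sets (0.243%) the change at 3 weeks was called and differed, by the same limits, from each of the 3 earlier times in the same direction, 41 higher and 6 lower. They stood for 26 higher and 2 lower genes. Of the 26, 25 were below 0 at 1 day, and 11 were called lower there, as were 7.44% of all tested probe sets. At 1 week 1 was already called higher, as were 6.21% of all tested probe sets. The genes were chosen for a smaller effect at the earlier times, which favours such counts, so these only describe the set.

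Mal2, a transport protein of polarised epithelial cells, had the largest gap to 1 week. It measured 459.7, 317, 628, 264 and 440.2 in crushed and 21.6, 53.6, 112, 11.6 and 48.5 in contralateral ONHs at 3 weeks (3.27 ± 0.46, adjusted p = 4.5e-05), and its log2 difference had been -0.08, -0.93 and -0.6 at the 3 earlier times. The difference between 3 weeks and 1 week was 3.88 ± 0.66 (adjusted p = 0.0007). Gabrg3, a GABA-A receptor subunit, was at 423, 799, 489, 769 and 1099 in crushed and 78.5, 169, 151, 221 and 222 in contralateral ONHs (2.09 ± 0.29), against -0.45 at 1 week (adjusted p of the difference 0.00052).

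Bhmt and Dmgdh, consecutive enzymes of betaine and dimethylglycine breakdown, lie on chromosome 13 and rose together. Bhmt had 417, 412, 593, 791 and 237 in crushed and 49.3, 32.9, 38.9, 67.3 and 92.2 in contralateral ONHs (3.11 ± 0.38, adjusted p = 9.0e-06), and Dmgdh 306, 246, 275, 484 and 236 in crushed and 41.6, 49.4, 32.6, 92.4 and 90.5 in contralateral ONHs (2.41 ± 0.29, adjusted p = 9.5e-06). Neither gene was called at 1 week, where the differences were 0.93 and 0.06. Crushed replicate 4 was the highest crushed array for both.

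Slc5a6, the sodium-dependent vitamin transporter, was at 1145, 513, 1078, 906 and 868 in crushed and 257, 228, 226, 143 and 324 in contralateral ONHs (1.93 ± 0.19, adjusted p = 7.8e-07). Tfcp2l1, a transcription factor of ductal epithelia, had 552 to 887 in crushed and 166 to 271 in contralateral ONHs (1.69 ± 0.28), and Ecrg4, a secreted factor of choroid plexus and epithelia, 4240 to 6116 in crushed and 459 to 1527 in contralateral ONHs (2.25 ± 0.37). Aldh3a1, the corneal crystallin aldehyde dehydrogenase, rose by 1.26 ± 0.39 (adjusted p = 0.025), and this call was lost without pair 1 or pair 3. Cyp4a12a (1.42 ± 0.4) and the desmosomal cadherin Dsg2 (1.1 ± 0.26) were called on smaller rises; without pair 1, Cyp4a12a had an adjusted p of 0.081 and Dsg2 a difference of 0.84. Cdh1 and Ccn5 belonged to the set as well. The 2 genes that were lowest at 3 weeks were Rasgrp2, an exchange factor for Rap1 (-1.17 ± 0.21; -0.07 at 1 week), and Nmt2, an N-myristoyltransferase (-1.01 ± 0.2; 0.45 at 1 week). Nmt2 was not called without pair 1, 3 or 4 (-0.96, -0.86 and -0.98) or with the floor at 50 (-0.76), and Rasgrp2 stood at -0.38 (adjusted p = 0.24) when naive ONHs replaced contralateral ONHs.

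**Figure D5:**
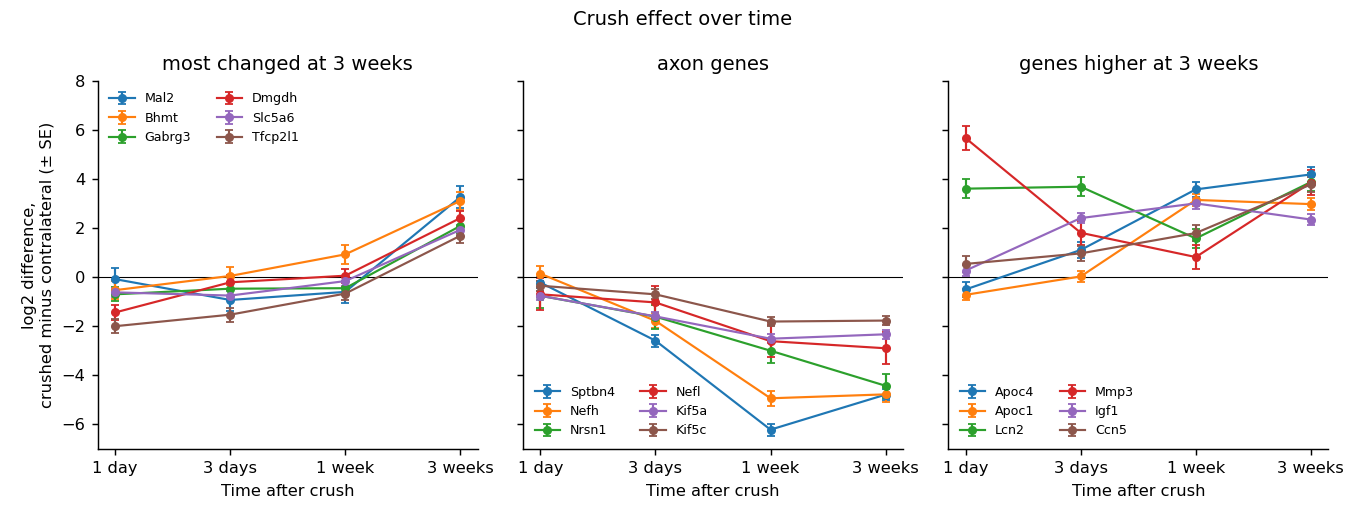
Log2 difference between crushed and contralateral ONHs (5 pairs per time) at the 4 times from 1 day to 3 weeks for 18 genes. Bars are limma SEs from the joint fit of the 4 times, with 1 estimate of the spread for each gene. The 6 plotted genes most changed at 3 weeks stood at or below 0 at 1 day and 3 days apart from Bhmt at 3 days (0.05), axon genes were lower at each later time up to 1 week, and Lcn2 and Mmp3 were high at 1 day, lower at 1 week and high again at 3 weeks.

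Most of the other changes had started earlier. Of the 455 higher probe sets, 306 were also higher at 1 week (out of 1199 there, 6.21% of all tested), 222 at 3 days (out of 1274, 6.6%) and 165 at 1 day (out of 1356, 7.02%), and 92 had not been called at 1 day, 3 days or 1 week in either direction. Of the 338 lower probe sets, 227 were lower at 1 week (out of 681, 3.53%), 128 at 3 days (out of 424, 2.2%) and 208 at 1 day (out of 1436, 7.44%), and 57 had not been called before. A change of sign was seen for 51 probe sets that were lower at 1 day and higher at 3 weeks. The median of the axon list was -0.53, -0.55, -0.8 and -1.12 in order of time. Over the same times, Nefh differed by 0.14, -1.78, -4.94 and -4.78, and Sptbn4 by -0.22, -2.59, -6.22 and -4.79, with the crushed values of Sptbn4 below the floor at 3 weeks. Apoc4 and Apoc1 rose later than Lcn2. Apoc4 differed by -0.5, 1.11, 3.58 and 4.19 at these 4 times, Apoc1 by -0.72, 0.03, 3.15 and 2.98, and Lcn2 by 3.61, 3.69, 1.58 and 3.88. The mitosis list had medians of 0.85, 3.82, 2.25 and 0.08 at the same times.

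The 3-month samples were hybridised as a second batch and were read on their own. Of the 455 higher probe sets, 425 were tested at 3 months and 407 of these (95.8%) were again above 0, where 58.7% of the probe sets above 0 but not called at 3 weeks were. Of the 338 lower probe sets, 327 were tested and 304 (93%) were below 0, where 65.3% of the uncalled ones below 0 were. The median log2 difference of the higher probe sets was 1.34 at 3 weeks and 1.05 at 3 months, and that of the lower ones -1.29 and -0.73. Few of these passed the test at 3 months: 30 of the higher and 36 of the lower probe sets were called, out of 39 (0.207%) and 48 (0.255%) called in all. Axon genes had large differences at 3 months as well, at -6.43 for Nefh (adjusted p = 0.064) and -4.56 for Kif5a (adjusted p = 0.039), while the cholesterol list, with a median of -0.19, and Apoc1, at 0.81, were closer to 0. Among the higher genes most changed at 3 weeks, 24 of 25 tested were above 0 at 3 months, with the exception of Gabrg3 (-0.37). Of the 25, 6 were called higher at 3 months, where 0.207% of all tested probe sets were. Some genes of the set had larger differences at 3 months than at 3 weeks without passing the test at 3 months. Among these were Tfcp2l1 (2.47), Cyp4a12a (2.12), Cdh1 (1.83), Aldh3a1 (1.63) and Dsg2 (1.57).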

How the data were processed

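ONH samples of a pair of mice each were hybridised to Affymetrix Mouse 430A 2.0 arrays. The authors made the deposited intensity values with dChip, with invariant set normalization, per the study's methods; the number of arrays, and for dim genes the floor below, limit the precision. Here intensities under 20 were set to 20 and log2 was taken (10.2% of the values of the 40 arrays lay below 20). Of 22626 probe sets without controls, 20380 had 1 gene symbol in the platform annotation, 691 several and 1555 none; symbols were updated through gene identifiers to RefSeq GRCm38.p6, and each gene was represented by its brightest probe set with a single symbol. Probe sets with an intensity of at least 50 in at least 5 of 40 arrays were kept.

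Crushed and contralateral arrays of 1 day, 3 days, 1 week and 3 weeks were fitted together with limma 3.58.1 in R 4.3.3, with an intensity trend and the pair of animals as a block. Adjusted p-values are Benjamini-Hochberg values over all probe sets tested, two-sided, and a call needed an adjusted p under 0.05 and a 2-fold change. The 3-month arrays, a separate batch, were fitted apart. Pairs share animals, as the series design states; the deviations of same-numbered samples from their group means correlated by -0.02, -0.09, 0.56, 0.22 and 0.20. P-values measure the spread between these pools only. The fit was tested on simulated data. The methods' t-test, paired, was run as an alternative, together with other floors, filters, normalizations, references and left-out pairs, and, chosen after seeing the data, photoreceptor or muscle level as a covariate.

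Named genes were the 15 largest rises and 15 largest falls with 5 of 5 pairs alike, up to 5 called members in each direction and the anchor genes of each of 40 gene lists, and up to 10 genes in each direction among those most changed at 3 weeks, by the contrast with 1 week. Members and lists were chosen with earlier results of these data known. Promoters are those of RefSeq GRCm38.p6, and motifs were searched on both strands.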

Additional observations from a re-analysis of the deposited data

Results flagged for a closer look

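Single arrays stood far from the other 4 of their group in 29 of 478 groups examined among the named genes, and chance alone gives about 1 in 20. Crushed replicate 2 was the highest array of its group for Apoc1 (intensity 2653), Ccl3 (intensity 1863), Cdk1 (intensity 411.9), Cnp (intensity 8088), Galns (intensity 579.5), Itgax (intensity 1075), Itgb2 (intensity 2134), Mbp (intensity 12571) and Unc5b (intensity 388.5). Crushed replicate 3 was the highest array of its group for Cacng3 (intensity 110.4), Cd74 (intensity 6633), Rlbp1 (intensity 2767) and Syn1 (intensity 348.4). Crushed replicate 4 was the lowest array of its group for H2-Ab1 (intensity 2844). Crushed replicate 5 was the highest array of its group for Il6 (intensity 29.34) and Kif4 (intensity 51.1). Contralateral replicate 1 was the highest array of its group for Aldh1a3 (intensity 91.88) and Ptprc (intensity 708.6). Contralateral replicate 1 was the lowest array of its group for Cd8a (intensity 36.72) and Matn4 (intensity 34.28). Contralateral replicate 2 was the highest array of its group for Bmp5 (intensity 288), Cd74 (intensity 4513) and Mylpf (intensity 3063). Contralateral replicate 2 was the lowest array of its group for Cspg5 (intensity 1163). Contralateral replicate 3 was the highest array of its group for Syp (intensity 1660). Contralateral replicate 3 was the lowest array of its group for Ecrg4 (intensity 458.8). Contralateral replicate 4 was the lowest array of its group for Cspg4 (intensity 118.1). Contralateral replicate 5 was the highest array of its group for Kcnj15 (intensity 28.59). Contralateral replicate 5 was the lowest array of its group for Prox1 (intensity 124).

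The crush effect at 3 weeks differed from that at 1 week, by limma's test of the difference, in the genes most changed at 3 weeks, which were chosen by that test. The log2 effect at 3 weeks minus that at 1 week was 2.44 for Aldh3a1, 2.18 for Bhmt, 2.2 for Cyp4a12a, 2.35 for Dmgdh, 2.2 for Dsg2, 2.16 for Ecrg4, 2.55 for Gabrg3, 3.88 for Mal2, -1.46 for Nmt2, -1.09 for Rasgrp2, 2.09 for Slc5a6 and 2.36 for Tfcp2l1. Over all probe sets, 2473 had another effect at 3 weeks than at 1 day, 1224 than at 3 days and 869 than at 1 week.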

How the results depend on the processing

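Without a minimum fold change, 4340 probe sets passed (2008 higher, 2332 lower). With naive ONHs in place of contralateral ONHs, 1200 were called, 705 of them higher; oligodendrocyte genes called lower then numbered 11 in place of 15 and cholesterol genes 1 in place of 5, while 4 interferon-stimulated genes and 4 muscle genes were called higher. The methods' paired t-test, on linear values, passed 5890 probe sets at their unadjusted threshold and 819 after Benjamini-Hochberg adjustment, and 209 with the adjustment and the 2-fold limit together (87 higher, 122 lower). Without the replicate block that pairs the eyes of the same mice, 797 were called (458 higher, 339 lower). Leaving out 1 pair gave 737 to 933 calls, the most without pair 2. With photoreceptor or muscle level as a covariate, chosen after seeing the data, the counts were 820 and 778. Of 137 named genes that were called, 99 kept their call in all alternatives that tested them, and none changed direction. These 17 alternatives leave out the methods' t-test, for which only probe sets were counted and no named gene was followed. Intensities near the floor of 20 limit the fold changes of dim genes, and the cause of the differences between settings was not tested.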
